A study of Homo sapiens with 6 samples.

Results

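The genes described here encode the serine/arginine-rich splicing factors (symbols SRSF1 to SRSF12) and the heterogeneous nuclear ribonucleoproteins whose symbols begin with HNRNP. They were chosen by symbol from a table of gene counts, with the rows of pseudogenes and antisense transcripts left out, a rule that uses names and no values, although earlier results of these data were known when the families were picked. The choice gave 38 of the 58735 rows of the table, 12 SRSF genes and 26 HNRNP genes. The counts came from RD, an established embryonal rhabdomyosarcoma (ERMS) cell line, transduced with lentivirus that carried either scrambled shRNA (control, n = 3) or shRNA against the kinase TAK1 (n = 3), so that both groups had been transduced and expressed an shRNA. A single TAK1 shRNA construct in a single cell line was sequenced. In TAK1 knockdown RD cells, 7 of the 33 SRSF and HNRNP genes that could be tested were lower than in the control cells past both thresholds used (11.3% of all genes tested were), and 0 were higher (11.8% of all genes tested). Of the 33 tested members, 30 had a log2 fold change below 0, against 7565 of all 15935 genes tested. It was between 0 and -0.40 in all of these members but SRSF12.

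SR proteins hold RNA recognition motifs and a tail rich in arginine and serine that is phosphorylated by SRPK and CLK kinases. They bind enhancer sequences in exons and recruit the spliceosome to neighbouring splice sites. Proteins of the hnRNP families coat nascent transcripts, often repress the use of nearby splice sites, and act in mRNA export, stability and translation as well. Many genes of both groups limit their own protein by splicing a poison exon into their mRNA, which sends the transcript to nonsense-mediated decay. In muscle cells these factors, together with MBNL, RBFOX and CELF proteins, help set which exons are used during differentiation.

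The sequences below show the pair of closest SR paralogs that moved in opposite directions, SRSF2 and SRSF8. SRSF8 arose as a retrotransposed copy of SRSF2. Over 654 aligned bases of their coding sequences, 554 were identical (84.7%). The first 150 coding bases of each are printed from GENCODE 44 on the coding strand, with the 15 bases at which they differ in capitals.
SRSF2: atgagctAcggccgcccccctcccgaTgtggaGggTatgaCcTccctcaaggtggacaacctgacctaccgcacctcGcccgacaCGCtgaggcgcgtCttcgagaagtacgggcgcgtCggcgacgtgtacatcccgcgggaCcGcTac
SRSF8: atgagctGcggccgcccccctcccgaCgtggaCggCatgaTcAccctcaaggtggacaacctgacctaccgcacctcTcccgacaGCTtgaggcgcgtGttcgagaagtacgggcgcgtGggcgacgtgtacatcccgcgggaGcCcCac
Of the stretches of 75 bases (the read length) that make up the main transcript, 0.0% of those of SRSF2 and 1.09% of those of SRSF8 occurred unchanged in a transcript of another gene.

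Promoter windows, from 250 bases before to 50 bases after the annotated start, were taken from RefSeq (GRCh38.p14) for 35 of the 38 members, in 49 windows, because some genes have several starts. Windows of HNRNPA1, SRSF2 and HNRNPCL3 were not analysed here. The windows of HNRNPA3 and HNRNPD, which are among the members with the largest falls, and of SRSF8, the single member above its control level in every sample, are shown because they differ in composition. Capitals mark matches to 4 motifs searched on both strands. The box bound by NF-Y was searched as CCAAT, and the TATA box was searched as TATAAA. The E-box, bound by MYC and related factors, was searched as CACGTG, and the motif of ETS factors was searched as CCGGAAG.
HNRNPA3, chr2:177212544-177212843, plus strand: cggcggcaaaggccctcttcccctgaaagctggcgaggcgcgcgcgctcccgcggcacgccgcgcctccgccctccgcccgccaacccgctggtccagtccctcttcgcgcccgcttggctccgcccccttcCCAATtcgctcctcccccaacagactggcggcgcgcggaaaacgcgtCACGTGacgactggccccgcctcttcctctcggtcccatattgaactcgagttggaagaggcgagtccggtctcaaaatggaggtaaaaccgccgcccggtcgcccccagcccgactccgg
HNRNPD, chr4:82373942-82374241, minus strand: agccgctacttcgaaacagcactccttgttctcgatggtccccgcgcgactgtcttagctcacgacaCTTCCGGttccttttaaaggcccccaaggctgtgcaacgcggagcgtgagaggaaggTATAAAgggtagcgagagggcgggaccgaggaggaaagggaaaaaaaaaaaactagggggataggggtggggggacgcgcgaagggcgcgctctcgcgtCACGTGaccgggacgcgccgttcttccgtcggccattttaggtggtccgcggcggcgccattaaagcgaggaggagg
SRSF8, chr11:95066627-95066926, plus strand: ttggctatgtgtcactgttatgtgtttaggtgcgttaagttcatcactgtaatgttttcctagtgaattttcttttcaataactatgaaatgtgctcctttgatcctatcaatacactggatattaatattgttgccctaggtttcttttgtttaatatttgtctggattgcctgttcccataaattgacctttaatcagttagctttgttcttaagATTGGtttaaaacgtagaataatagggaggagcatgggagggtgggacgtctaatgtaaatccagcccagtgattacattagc
The HNRNPA3 window held a CCAAT box and an E-box and was 70.0% G and C. That of HNRNPD held an E-box, a TATA box and an ETS motif at 60.7% G and C. The SRSF8 window held a CCAAT box on the opposite strand and was 36.0% G and C. Over all members the median window was 64.0% G and C, against 58.7% over 35116 windows of all genes. A CCAAT box lay in 51.0% of member windows and 34.6% of all windows, and an E-box in 16.3% and 7.26%. Most windows with a CCAAT box were of HNRNP genes. Of the SRSF genes with a window, SRSF3 and SRSF8 alone held a CCAAT box, and the overlapping windows of SRSF8 held the same box. The 7 members with an E-box were HNRNPA3, HNRNPD, HNRNPDL, HNRNPH2, HNRNPH3, HNRNPM and HNRNPUL1. A TATA box lay in 12.2% of member windows and 11.5% of all windows, and an ETS motif in 10.2% and 10.3%. The letters of an AP-1 motif (TGACTCA) were in 0 member windows and 4.95% of all windows, and those of a cyclic AMP response element (tgacgtca) in 0 and 1.85%. No motif searched overlapped another in the 3 windows shown.

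Each library held between 28839898 and 34469323 counts. The labels do not say whether the 3 samples of a group were separate cultures, so p-values measure the spread between these samples, which may be technical. The targeted gene MAP3K7, which encodes TAK1, had 77.9, 76.5 and 77.6 CPM in control and 30.5, 33.6 and 29.9 CPM in knockdown samples, which was -1.30 on the log2 scale (standard error, SE, 0.062, edgeR adjusted p = 4.45e-14). Here CPM stands for the count relative to the library size after normalization by the trimmed mean of M-values (TMM). Of 8 muscle lineage markers, MYF5 was at 0 and PAX7 overlapped between the groups (125 to 134 CPM in control and 132 to 150 CPM in knockdown samples). MYOD1 (255 to 271 against 322 to 355 CPM), MYOG (134 to 146 against 161 to 175), DES (336 to 346 against 354 to 374) and MYMK (6.51 to 7.36 against 12.1 to 14.8) were above control in every knockdown sample. CHRNA1 (908 to 929 against 698 to 702 CPM) and NCAM1 (341 to 349 against 316 to 323) were below control in every knockdown sample, and with CHRNA1 the highest of the list, the sum of the 8 was 2140 to 2160 CPM in control and 2020 to 2080 CPM in knockdown samples. The part of these muscle genes in the results below was not tested. Epithelial, hematopoietic and endothelial markers summed to at most 0.453, 0.106 and 0.162 CPM in any sample, and 3 neuronal markers to between 5.78 and 8.41 CPM. Mitochondrially encoded transcripts took 1.07% ± 0.0726 (SD, n = 3) of counts in control and 1.26% ± 0.0568 (SD, n = 3) in knockdown samples, without overlap, and their part in the results below was not tested. In bulk RNA, fewer cells that express a gene and less of its RNA per cell cannot be told apart.

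Of the 38 members, 33 passed the filter on low counts, all 12 SRSF genes and 21 HNRNP genes, and each of these had at least 12 counts in every sample. The 5 others were HNRNPCL1, HNRNPCL2, HNRNPCL3 and HNRNPCL4, copies of HNRNPC at 0 counts in all 6 samples, and the read-through transcript HNRNPUL2-BSCL2 with 2 counts in a single knockdown sample. Divided by the length of the main GENCODE transcript, the levels in control cells ran from 0.388 CPM per kb for SRSF12 to 460 CPM per kb for HNRNPA1. The 5 highest members were HNRNPA1, HNRNPA2B1 (350 CPM per kb), HNRNPK (344), HNRNPC (283) and HNRNPM (276). The highest SR gene was SRSF3 at 107 CPM per kb, below 12 HNRNP genes. As a share of all counts, the HNRNP genes together took 1.18%, 1.18% and 1.19% in the control samples and 1.04%, 1.09% and 1.11% in the knockdown samples. Every knockdown share was below every control share, with means of 1.18% ± 0.00515 and 1.08% ± 0.0350 (SD, n = 3 each). The SRSF genes together took 0.200%, 0.209% and 0.208% in control and 0.187%, 0.201% and 0.191% in knockdown samples, and these ranges overlapped. With 3 samples a group, an exact permutation test cannot give a two-sided p below 0.1.

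**Figure D1:**
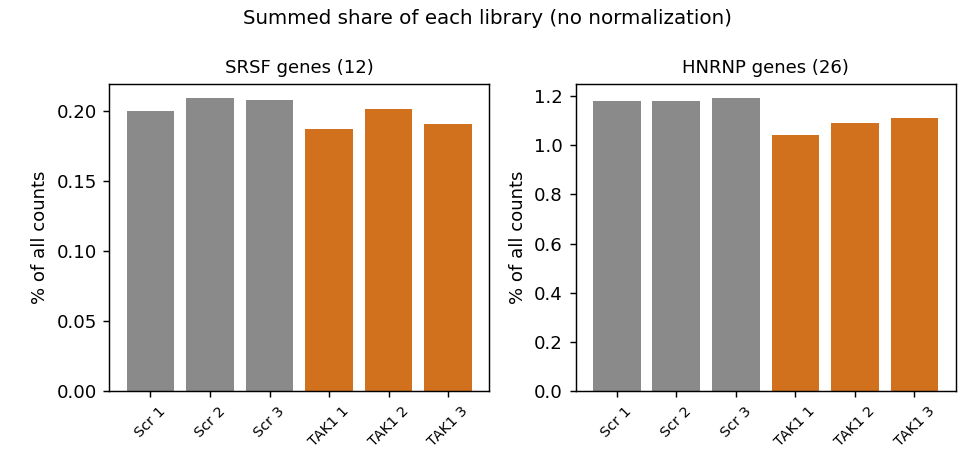
Share of all counts (percent, y axis, from 0) taken by the 12 SRSF genes (left) and the 26 HNRNP genes (right) in each of the 6 libraries, control in grey and TAK1 knockdown in orange. All 3 knockdown bars of the HNRNP genes (1.04% to 1.11%) are below the control bars (1.18% to 1.19%), while knockdown sample 2 of the SRSF genes (0.201%) is above control sample 1 (0.200%).

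A member was called lower or higher when edgeR's quasi-likelihood test over 15935 genes gave an adjusted p under 0.05 and the log2 fold change was 0.25 or more in size. By this rule 7 of 33 tested members (21.2%) were lower, against 11.3% of all genes tested, and 0 were higher, against 11.8%. The 7 were SRSF12, HNRNPAB, HNRNPA3, HNRNPD, HNRNPL, SRSF2 and HNRNPA2B1. At an unadjusted p under 0.05, 24 members were lower and 1 was higher, against 3283 and 3357 of all 15935 genes. DESeq2 and limma voom also called 7 members lower and 0 higher. Over all genes, DESeq2 called 1809 lower and 1680 higher, and limma voom called 1806 lower and 1818 higher. With the adjusted p alone, 23 members (69.7%) were lower, against 17.2% of all genes, and 1, SRSF8, was higher, against 16.1%. All 3 knockdown samples lay below all 3 control samples in 25 of the 33 members, against 22.2% of all genes. The median log2 fold change was -0.15 over the members, -0.16 over the SRSF genes and -0.14 over the HNRNP genes, against 0.02 over all genes tested. Because most members are abundant, the same counts were made at a mean of at least 50 CPM. There 22 of 30 members (73.3%) were lower by the adjusted p alone, against 31.3% of 4787 genes, and 6 of 30 passed both thresholds, against 16.3% of genes. The count of 7 fell to 4 without control sample 3 (HNRNPA3, HNRNPAB, HNRNPD and HNRNPL) and to 4 when libraries were scaled by size alone (HNRNPA3, HNRNPAB, HNRNPD and SRSF12). The count of 23 fell to 15 without control sample 2, and to 15 when scaled by size alone, where higher genes made up 62.9% of all calls in place of 51.0%.

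**Figure D2:**
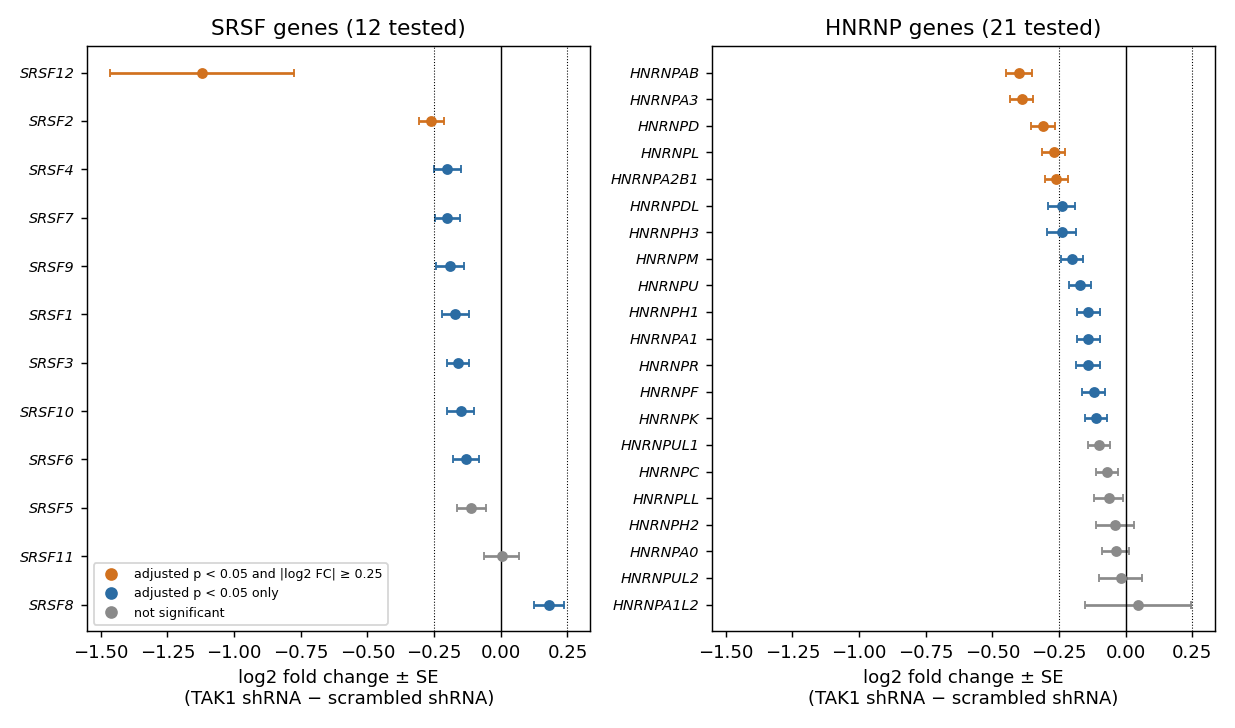
Log2 fold change of TAK1 knockdown against control cells with its SE (x axis) for the 12 SRSF genes (left) and the 21 HNRNP genes tested (right), sorted by size. Dotted lines mark a log2 fold change of 0.25 in either direction. The 7 orange genes passed both thresholds, 30 of the 33 points lie below 0 (7565 of all 15935 genes tested), and SRSF8 is the single blue point above it.

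Among the SR genes, SRSF2 (also known as SC35) encodes a core SR protein of nuclear speckles. SRSF2 (ENSG00000161547.17, chromosome 17, 76734115 to 76737333, minus strand) had 175, 180 and 184 CPM in control and 149, 152 and 149 CPM in knockdown samples. The knockdown values lay close together and below all control values, a log2 fold change of -0.26 (SE 0.046, edgeR adjusted p = 7.78e-05). It stayed just past the fold threshold and was short of it without control sample 3 (-0.24), with upper-quartile scaling (-0.24) and with scaling by library size alone (-0.21). SRSF8 (ENSG00000263465.5, chromosome 11, 95066919 to 95071225, plus strand), its retrotransposed paralog, had 55.7, 58.3 and 59.5 CPM in control and 64.5, 66.8 and 65.8 CPM in knockdown samples. All knockdown values were above all control values, a log2 fold change of 0.18 (SE 0.056, edgeR adjusted p = 0.0128), short of the fold threshold. The adjusted p was 0.0746 without control sample 1 and 0.0508 without control sample 2. The ratio of SRSF8 to SRSF2 counts, taken after these values were seen, was 0.318, 0.325 and 0.324 in control and 0.433, 0.440 and 0.441 in knockdown samples. A ratio within a library does not depend on scaling, and the groups did not overlap.

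SRSF12, also known as SRrp35, antagonizes other SR proteins in the choice of splice sites and had the largest fold change and the lowest level of the tested members. SRSF12 (ENSG00000154548.9, chromosome 6, 89095959 to 89118071, minus strand) was counted 32, 46 and 49 times in control and 12, 24 and 27 times in knockdown samples, which is 1.13, 1.46 and 1.59 CPM against 0.410, 0.679 and 0.818 CPM. The groups did not overlap, and the log2 fold change was -1.12 with a 95% interval from -1.83 to -0.40 (SE 0.345, edgeR adjusted p = 0.0142). With so few counts the call rested on single samples, since the adjusted p was 0.0514 without control sample 2, 0.0707 without control sample 3 and 0.0624 without knockdown sample 1. SRSF10, its paralog (67.9% identity over aligned coding bases) and a splicing repressor when dephosphorylated, was at 161 ± 6.21 CPM in control and 145 ± 8.14 CPM in knockdown samples (SD, n = 3), with -0.15 as its log2 fold change (SE 0.051, edgeR adjusted p = 0.0212). The adjusted p of SRSF10 was 0.159 without control sample 2 and 0.0615 without knockdown sample 1.

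Of the 8 other SR genes, 6 were lower by the adjusted p alone and 2 did not pass it. SRSF1, the founding SR protein, had 121, 124 and 122 CPM in control and 107, 104 and 115 CPM in knockdown samples, a log2 fold change of -0.17. SRSF3 and SRSF7, which also serve as adaptors for mRNA export, had log2 fold changes of -0.16 and -0.20. SRSF4 and SRSF6, long SR proteins with paired RNA recognition motifs, had -0.20 and -0.13, and SRSF9, the closest paralog of SRSF1, had -0.19. All of these passed the adjusted p (0.00177 for SRSF7 to 0.042 for SRSF6) and none the fold threshold. In each of them every knockdown sample was below every control sample. Of all genes tested, 17.2% were lower by the adjusted p alone, and 22.2% had every knockdown sample below every control sample. With 1 sample left out, the adjusted p of SRSF1 rose to 0.0657 (control sample 2) or 0.0565 (knockdown sample 2), that of SRSF9 to 0.0510 (control sample 1), and that of SRSF6 was over 0.05 in all but 1 of the 6 fits, the 1 without knockdown sample 2. SRSF5 had 134, 148 and 155 CPM in control and 130, 138 and 138 CPM in knockdown samples, which overlapped, at -0.11 (edgeR adjusted p = 0.14, or 0.0342 without control sample 1). SRSF11 was at 202 ± 9.42 and 202 ± 27.5 CPM (SD, n = 3), with knockdown sample 2 at 234 CPM above the 5 others, and its log2 fold change was 0.003 with a 95% interval from -0.13 to 0.14.

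**Figure D3:**
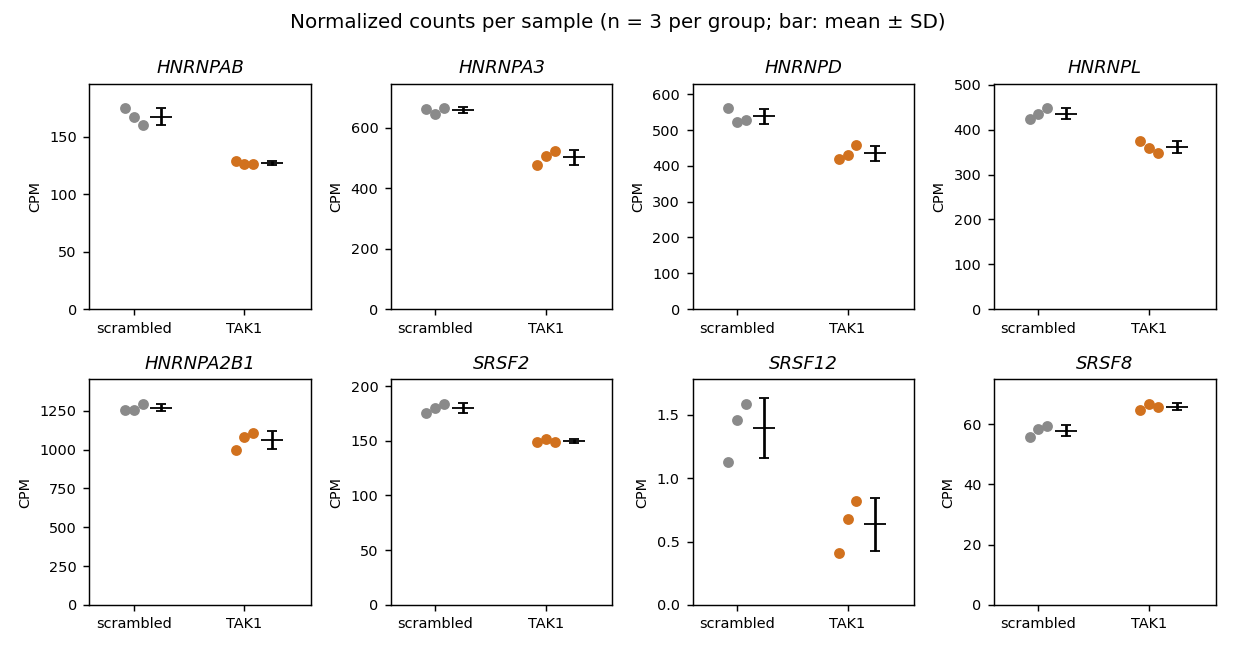
Normalized counts (CPM, y axes from 0) of the 7 members called lower and of SRSF8 in the 3 control (grey) and 3 TAK1 knockdown samples (orange), with the mean ± SD beside each group. In the 7 called genes each knockdown point is below each control point, and in SRSF8 each is above (64.5 to 66.8 against 55.7 to 59.5 CPM).

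The hnRNP A/B genes encode proteins related to HNRNPA1, a splicing silencer that binds UAG-containing motifs. HNRNPAB (ENSG00000197451.12, chromosome 5, 178204533 to 178211163, plus strand) had 175, 167 and 160 CPM in control and 129, 126 and 126 CPM in knockdown samples. The groups were far apart, with a log2 fold change of -0.40 (SE 0.048, edgeR adjusted p = 5.39e-07). HNRNPA3 (ENSG00000170144.22, chromosome 2, 177212694 to 177223959, plus strand) had 661, 646 and 666 CPM in control and 476, 505 and 524 CPM in knockdown samples. Again every knockdown sample was lower, with a log2 fold change of -0.39 (SE 0.044, edgeR adjusted p = 1.26e-07). HNRNPA2B1 (ENSG00000122566.22, chromosome 7, 26171151 to 26201529, minus strand), whose product also binds N6-methyladenosine-containing RNA, had 1256, 1257 and 1296 CPM in control and 994, 1079 and 1105 CPM in knockdown samples. Its log2 fold change was -0.26 (SE 0.043, edgeR adjusted p = 3.18e-05), lowest in knockdown sample 1, and it was short of the fold threshold without that sample (-0.22), without control sample 3 (-0.25 after rounding) and with library size alone (-0.21) or upper-quartile scaling (-0.24).

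HNRNPA1, the most abundant member, had 1724, 1698 and 1748 CPM in control and 1460, 1556 and 1669 CPM in knockdown samples. The groups did not overlap, at a log2 fold change of -0.14 (SE 0.044, edgeR adjusted p = 0.014, or 0.0737 without control sample 3), short of the fold threshold. Of its read-length stretches, 29.8% also occur in other genes, of which HNRNPA1L3 holds the most (19.6%), so part of its count may be shared. HNRNPA0, an intronless member of the group, had 667, 600 and 576 CPM in control and 631, 571 and 594 CPM in knockdown samples. These overlapped, with a log2 fold change of -0.037 and a 95% interval from -0.14 to 0.07, and the sign turned with library size alone (0.011). The ratio of HNRNPA3 to HNRNPA0 counts, taken after these values were seen, was 0.990, 1.08 and 1.16 in control and 0.753, 0.886 and 0.881 in knockdown samples, without overlap. HNRNPA1L2, whose main transcript lies wholly within another annotated gene, was at 2.66 ± 0.292 and 2.74 ± 0.470 CPM (SD, n = 3), and its reads cannot be told from those of that gene.

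HNRNPD, also known as AUF1, binds AU-rich elements and directs mRNA decay, and HNRNPDL is its paralog and neighbour on chromosome 4. HNRNPD (ENSG00000138668.20, 82352498 to 82374503, minus strand) had 562, 523 and 529 CPM in control and 418, 429 and 458 CPM in knockdown samples. It was lower in every knockdown sample, with a log2 fold change of -0.31 (SE 0.046, edgeR adjusted p = 8.71e-06), and passed both thresholds in each of the fits with 1 sample left out. HNRNPDL (82422565 to 82430462, minus strand) had 340, 359 and 360 CPM in control and 274, 323 and 299 CPM in knockdown samples. Its log2 fold change of -0.24 (SE 0.051, edgeR adjusted p = 0.000653) was just short of the fold threshold, and reached it without control sample 1 (-0.27), knockdown sample 2 (-0.30) or knockdown sample 3 (-0.25). HNRNPD and HNRNPDL shared 69.2% of aligned coding bases, and HNRNPD and HNRNPAB 69.9%.

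HNRNPL binds CA repeats and regulates the inclusion of the exons next to them. HNRNPL (ENSG00000104824.18, chromosome 19, 38836370 to 38852347, minus strand) had 424, 435 and 449 CPM in control and 375, 360 and 348 CPM in knockdown samples. The groups did not overlap, and the log2 fold change was -0.27 (SE 0.044, edgeR adjusted p = 2.85e-05), or -0.22 with library size alone. Of its read-length stretches, 32.2% also occur in other genes, of which ENSG00000268083 holds the most (23.5%), so part of its count may be shared. HNRNPLL, the paralog known for CD45 splicing in lymphocytes, had 89.6, 95.5 and 89.9 CPM in control and 82.5, 92.0 and 88.4 CPM in knockdown samples. Its groups overlapped, at a log2 fold change of -0.064 with a 95% interval from -0.18 to 0.05. The ratio of HNRNPL to HNRNPLL counts, taken after these values were seen, ran from 4.56 to 5.00 in control and from 3.91 to 4.55 in knockdown samples.

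The hnRNP F/H genes encode proteins that bind runs of G. HNRNPH3 had 190, 199 and 201 CPM in control and 150, 173 and 177 CPM in knockdown samples, a log2 fold change of -0.24 (SE 0.054, edgeR adjusted p = 0.00118), and it reached the fold threshold when control sample 1 (-0.26), knockdown sample 2 (-0.27) or knockdown sample 3 (-0.29) was left out. HNRNPH1 (592 ± 2.86 and 539 ± 24.7 CPM) and HNRNPF (410 ± 6.11 and 376 ± 9.58 CPM, SD, n = 3) were lower without overlap, at -0.14 (edgeR adjusted p = 0.0157) and -0.12 (0.0277), short of the fold threshold. Without control sample 2 or 3 the adjusted p was 0.0780 and 0.0593 for HNRNPH1 and 0.114 and 0.119 for HNRNPF. HNRNPH2, an X-linked gene with 87.6% coding identity to HNRNPH1, had 63.9, 58.6 and 63.0 CPM in control and 54.5, 56.8 and 69.1 CPM in knockdown samples. Knockdown sample 3 was the highest of all 6, and the 95% interval of the log2 fold change ran from -0.19 to 0.11.

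HNRNPK, which binds C-rich RNA and DNA through KH domains, had 988, 1003 and 990 CPM in control and 887, 920 and 962 CPM in knockdown samples. The groups did not overlap, at a log2 fold change of -0.11 (SE 0.041, edgeR adjusted p = 0.0489), and the adjusted p was over 0.05 (0.0816 to 0.179) in the 5 fits that lacked a sample other than knockdown sample 3. HNRNPM, which takes part in the splicing of mesenchymal isoforms, had 690, 672 and 686 CPM in control and 591, 581 and 612 CPM in knockdown samples, a log2 fold change of -0.20 (SE 0.041, edgeR adjusted p = 0.000443). HNRNPC, which covers uridine tracts and keeps Alu exons out of mRNA, had 875, 890 and 923 CPM in control and 824, 864 and 874 CPM in knockdown samples. Its ranges nearly met, and the log2 fold change of -0.070 did not pass the test (edgeR adjusted p = 0.212, 95% interval -0.15 to 0.02). HNRNPU, a chromatin-bound scaffold protein, was at 1118 ± 29.9 and 995 ± 46.1 CPM (SD, n = 3), with -0.17 as its log2 fold change (SE 0.042, edgeR adjusted p = 0.00302). Its relatives HNRNPUL1 and HNRNPUL2 had log2 fold changes of -0.10 (edgeR adjusted p = 0.0514, but 0.0207 without knockdown sample 1 and 0.047 without knockdown sample 3) and -0.019 (0.886), and 45.1% of the read-length stretches of HNRNPUL2 belong also to HNRNPUL2-BSCL2. HNRNPR was at 368 ± 5.34 and 333 ± 16.9 CPM, a log2 fold change of -0.14 (edgeR adjusted p = 0.0155, or 0.0579, 0.0830 and 0.0621 without control sample 2, control sample 3 and knockdown sample 2).

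**Figure D4:**
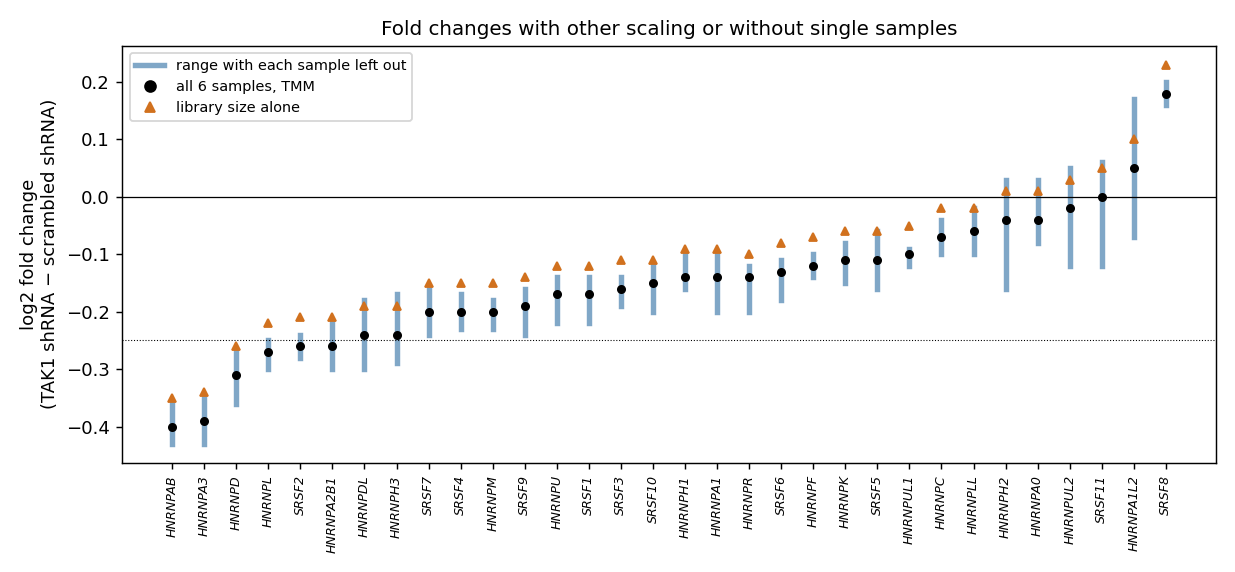
Log2 fold change (y axis) of the tested members other than SRSF12, with all 6 samples and TMM scaling (black), with library size alone (orange triangles) and as the range over the 6 fits with 1 sample left out (blue bars); the dotted line marks -0.25. HNRNPAB, HNRNPA3 and HNRNPD lie past the line throughout, while the bars of SRSF2, HNRNPA2B1, HNRNPDL and HNRNPH3 cross it, and library size alone places every triangle above its point.

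The member genes differ in how their reads can be assigned. Of the tested members, 9 SRSF and 11 HNRNP genes shared 0 read-length stretches with another gene in GENCODE 44, compared in the direction of transcription only. Exons of some members also overlap genes on the opposite strand. Among the called members these were HNRNPA2B1 (CBX3 and NFE2L3), HNRNPA3 (NFE2L2), HNRNPAB (PHYKPL), HNRNPD (HNRNPD-DT) and SRSF2 (MFSD11). The use of strand in counting is not known, so part of their counts may be shared. The largest shares were 100% for HNRNPA1L2, 45.1% for HNRNPUL2, 32.2% for HNRNPL and 29.8% for HNRNPA1. SRSF1 shared 28.0% with the overlapping gene ENSG00000266086, SRSF6 15.5%, HNRNPA3 14.9%, HNRNPH2 13.1% and HNRNPC 9.58%. The 127 pseudogene rows that were left out, 44 of them with a count, held at most 0.602% of the counts of their parent gene (HNRNPC), and adding them to the parent gave the same number of called members, 7 lower and 0 higher. All 12 SRSF genes have at least 1 annotated transcript classed as a target of nonsense-mediated decay (31 of 127 transcripts), as do 14 of the 21 tested HNRNP genes (94 of 437). The counts sum all transcripts of a gene, so protein-coding and decay-targeted forms were not told apart.

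The genes that work with SR and hnRNP proteins were taken from 6 lists of 168 genes, of which 158 could be tested. Of these, 16 (10.1%) were lower and 3 (1.9%) higher past both thresholds, against 11.3% and 11.8% of all genes tested, with a median log2 fold change of -0.06. The median was nearer 0 than that of the SRSF and HNRNP genes, and it was not tested against them. Of 21 SR-related proteins, 0 were called in either direction by edgeR, DESeq2 or limma voom. At an unadjusted p under 0.05, 3 were lower and 4 higher, against 3283 and 3357 of all 15935 genes. Of 14 kinases, importers and phosphatases of SR proteins, 1 was lower and 1 higher (7.14% each), against 11.3% and 11.8% of all genes tested. PPP2CA, the catalytic subunit of protein phosphatase PP2A, fell from 117 ± 0.606 to 63.2 ± 5.92 CPM (SD, n = 3), or -0.88 on the log2 scale (SE 0.059, edgeR adjusted p = 1.55e-11). SRPK3, the SR protein kinase of muscle, rose from 14.7 ± 0.694 to 20.7 ± 3.97 CPM, a log2 fold change of 0.50 (SE 0.106, edgeR adjusted p = 0.000669). Of 12 hnRNP proteins under other names, 0 were higher by edgeR, DESeq2 or limma voom or at an unadjusted p under 0.05. Of all genes tested, 11.8% were higher by edgeR and 3357 of 15935 at an unadjusted p under 0.05. The median log2 fold change of this list was -0.05.

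Of 38 tested tissue splicing regulators, 7 (18.4%) were lower and 1 (2.63%) was higher, against 11.3% and 11.8% of all genes tested. MBNL1, which promotes adult muscle splicing, had 126, 130 and 120 CPM in control and 71.0, 75.3 and 76.5 CPM in knockdown samples, a log2 fold change of -0.76 (SE 0.052, edgeR adjusted p = 3e-11). RBFOX1, a regulator of muscle and neuronal exons, had 69.2, 64.4 and 64.0 CPM in control and 41.1, 41.6 and 41.6 CPM in knockdown samples, a log2 fold change of -0.67 (SE 0.059, edgeR adjusted p = 2.44e-09). Both log2 fold changes were larger in size than those of the called members other than SRSF12. RBPMS2 (-0.84) and KHDRBS3 (-0.81) were lower from control means of 1.89 and 3.37 CPM, with an adjusted p of 0.0545 for RBPMS2 without knockdown sample 3 and 0.0510 for KHDRBS3 without control sample 2. NOVA1, a neuronal regulator, was higher at 0.60 (edgeR adjusted p = 0.0431), with an adjusted p of 0.140, 0.128, 0.154 and 0.0887 without control sample 1, control sample 3, knockdown sample 1 and knockdown sample 2, and DESeq2 and limma voom did not call it. Of 56 core spliceosome genes, 6 (10.7%) were lower, a share close to the 11.3% of all genes tested. By edgeR, DESeq2 or limma voom 0 were higher, against 11.8% of all genes tested by edgeR. At an unadjusted p under 0.05, 1 was higher, against 3357 of all 15935 genes. BCAS2, a subunit of the PRP19 complex, fell from 65.1 ± 2.97 to 33.9 ± 2.65 CPM (SD, n = 3), or -0.94 on the log2 scale (SE 0.066, edgeR adjusted p = 4.52e-11). SNRPD3, an Sm protein of the snRNP core, had -0.43, the U5 GTPase EFTUD2 -0.35, and CDC40, a factor of exon ligation, -0.32. Of 17 genes of nonsense-mediated decay and the exon junction complex, 1 was lower and 1 higher (5.88% each), against 11.3% and 11.8% of all genes tested. RBM8A, a core subunit of the exon junction complex, was lower (-0.26, edgeR adjusted p = 0.000146) and NBAS was higher (0.34, edgeR adjusted p = 2.03e-05). The median of the list was 0.06. RBM8A was short of the fold threshold without knockdown sample 1 (-0.23).

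**Figure D5:**
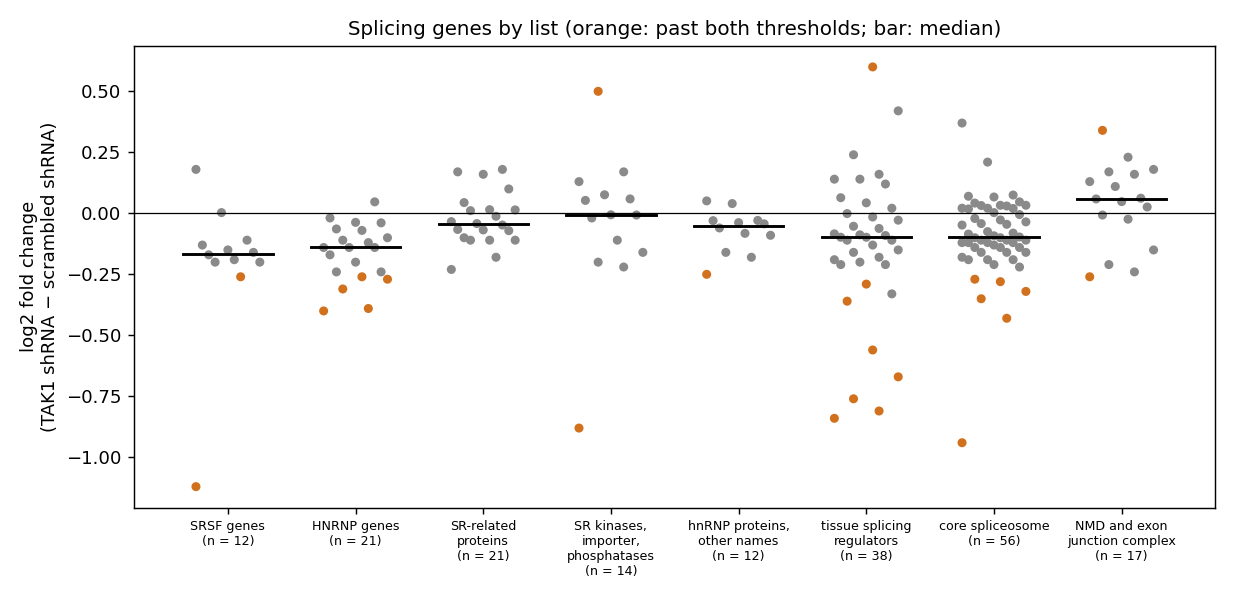
Log2 fold change (y axis) of each tested gene in the SRSF and HNRNP families and in 6 lists of other splicing genes, with the number of genes under each name, the median as a bar and genes past both thresholds in orange. The medians of the SRSF (-0.16) and HNRNP genes (-0.14) are the lowest of the 8, while single genes of other lists, such as BCAS2 (-0.94) and PPP2CA (-0.88), fell further than the called HNRNP genes.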

How the data were processed

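Poly(A)-enriched mRNA libraries from RD cells, 3 with scrambled shRNA and 3 with TAK1 shRNA, were read as paired ends of 75 bases. The authors called bases with CASAVA, removed low-quality and adaptor reads, aligned the rest to GRCh38 with STAR and deposited raw read counts per gene. The counter, the annotation, the use of strand and the treatment of reads with several matches are not given in the sources used here. Groups came from the sample labels.

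The deposited counts were filtered (filterByExpr), normalized by TMM and compared with the quasi-likelihood test of edgeR 4.0.16 in R 4.3.3, with p-values of 15935 genes adjusted by Benjamini-Hochberg. Calls needed an adjusted p under 0.05 and a log2 fold change of 0.25 or more in size. SEs are the log2 fold change over the square root of F. Intervals use the t distribution with the total degrees of freedom of the fit, residual plus prior. DESeq2 1.42.0, limma 3.58.1 (voom), a replicate term, added pseudogene counts, 2 further filters, 3 further scalings, 2 further fold thresholds and the removal of each sample were alternatives. The test was checked on simulated data. Each library held 28839898 to 34469323 counts. At this depth the biological coefficient of variation, 5.67%, exceeds counting error for all but weakly expressed genes, and replicates of a group differed by more than sampling noise.

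Positions, transcript lengths and shared stretches came from GENCODE 44 and promoters from RefSeq. The SRSF and HNRNP genes and the lists of splicing genes were chosen with earlier results of these data known. Given sample by sample are called members, the 5 with the highest level per length and paralogs that differ in direction, together with HNRNPDL, HNRNPH3 and some others added to complete a subfamily after values were seen. Other splicing genes named are called genes that average 1 CPM or more, at most 4 per list and direction. A result of the list of hnRNP proteins under other names is not reported here.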

Additional observations from a re-analysis of the deposited data

Results flagged for a closer look

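Among the pseudogene rows, which were left out of the members and used above only as counts added to the parent gene, 2 copies of HNRNPA1 had more counts in every knockdown sample than in any control sample. They were picked by these counts from 75 HNRNPA1 pseudogene rows, 23 of them with a count. The share of all rows that separate in this direction was not counted. HNRNPA1P49 had 4, 3 and 3 counts in control and 12, 14 and 15 counts in knockdown samples, 10 against 41 in all. It passed the filter on low counts through the knockdown samples alone, with a fitted log2 fold change of 1.89 and an edgeR adjusted p of 0.0132, or 0.0515 with no filter. A row picked and filtered in this way gives no test of a rise. HNRNPA1P8 had 2, 3 and 3 counts in control and 9, 13 and 12 counts in knockdown samples, 8 against 34 in all, did not pass the filter, and had an edgeR adjusted p of 0.0875 with no filter. HNRNPA1 itself had 42697 to 55106 counts per sample and moved the other way. Reads of the copies and of HNRNPA1 cannot be told apart with certainty in these counts.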

How the results depend on the processing

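The number of members lower was 7 with all 6 samples and ran from 4 to 9 with 1 sample left out, and the number higher was 0 throughout. It was 23 with no fold threshold (and 1 higher), 1 at a threshold of 0.5 (SRSF12) and 4 with library size alone. Upper-quartile scaling gave 5, and RLE scaling, both other filters, DESeq2, limma voom and added pseudogene counts gave 7. HNRNPAB, HNRNPA3 and HNRNPD passed both thresholds under each alternative other than the threshold of 0.5. Of the other splicing genes, 16 lower became 45 and 7, and 3 higher became 12 and 1, with no fold threshold and with a threshold of 0.5. With 1 sample left out they ran from 14 to 20 lower and from 2 to 5 higher, the 5 without knockdown sample 3. Among the members 28 kept 1 sign in each alternative fit, and 5 near 0 (HNRNPA0, HNRNPH2, HNRNPUL2, HNRNPA1L2 and SRSF11) did not.

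Same-numbered samples of the groups deviated together only weakly (correlations 0.134, 0.0707 and 0.0479). Knockdown samples 1 and 3 correlated best with the control sample of the same number. Knockdown sample 2 correlated slightly better with control sample 3 (0.0767). Such weak values cannot decide whether the samples were paired. With a replicate block, 7 members were lower and 0 higher, and 16 other splicing genes were lower and 3 higher. By the adjusted p alone, 25 members were lower with the block and 23 without it. Depth limits SRSF12 and HNRNPA1L2, with at most 111 counts in any sample. The cause of the differences between settings was not tested.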
